A study of Mus musculus with 6 samples.

Results

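The genes examined here were 10 of the 57010 rows of the deposited count table: Nodal, its antagonists Lefty1 and Lefty2, the gene ENSMUSG00000121043.1 that lies opposite Lefty2, the co-receptor gene Tdgf1, the receptor genes Acvr1b and Acvr2b, the signal transducers Smad2 and Smad3, and their partner transcription factor Foxh1. They were listed by symbol or identifier, and the list was chosen by pathway and with the counts of the same 2 groups already known, ENSMUSG00000121043.1 because of its high count in one of them. Their difference between the groups is therefore given as a description, without a test. The groups were 3 wild-type libraries of mouse embryonic stem cells (ESC, pluripotent cells grown under standard conditions) and 3 wild-type libraries of primary cortical neurons, taken from cortex at embryonic day 16.5 and grown for 7 days in vitro. The sample titles name no perturbation for either group, and both served as reference states, pluripotent and neuronal, in work on the gene Rai1. The stem cell line is named no further than WT ESC, and the library names of neuron replicates 2 and 3 carry the unexplained word empty. Those of the ESC libraries carry an unexplained letter, B for replicate 3 and A for the others. Nothing in the labels says that the libraries of a group came from separate cultures, so spread and p-values may reflect technical differences alone, and the batch label divides the samples exactly as the groups do, so batch and cell state cannot be told apart.

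Nodal is a secreted ligand of the TGF-beta family. With a co-receptor of the EGF-CFC family such as Tdgf1 (Cripto), it acts on activin receptors of type I (Acvr1b) and type II (Acvr2b), and the type I receptor phosphorylates Smad2 and Smad3; these enter the nucleus with Smad4 and act there with factors such as Foxh1. Lefty1 and Lefty2 are both targets of the pathway and secreted antagonists of it, which closes a feedback loop. In the early embryo the pathway patterns the germ layers and the left-right axis, and the Lefty genes and Tdgf1 are well known as abundant transcripts of cultured pluripotent cells.

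Most counts at the Lefty2 locus lay on the row of the gene opposite to it. Positions are those of the deposited table, whose build is GRCm39 as far as the submitters' processing notes name one. ENSMUSG00000121043.1 is a single exon of 2345 bases on the minus strand of chromosome 1, from 180719664 to 180722008, and no symbol was found for it. Lefty2 (ENSMUSG00000066652.6) is on the plus strand from 180720673 to 180726668, with 4 exons of 326, 247, 384 and 1654 bases. The minus-strand gene begins inside the intron between exons 2 and 3 of Lefty2 and runs across exons 2 and 1 to a point 1009 bases before the start of Lefty2. It covers exons 1 and 2 whole, 573 bases in all, which is 24.4% of its own length and 21.9% of the exonic length of Lefty2. Lefty1 (ENSMUSG00000038793.9) follows on the plus strand from 180762587 to 180765965, 35918 bases after Lefty2, and no gene in the table lies opposite to it. This was the only pair among the 10 genes with exonic bases opposite another gene.

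**Figure D1:**
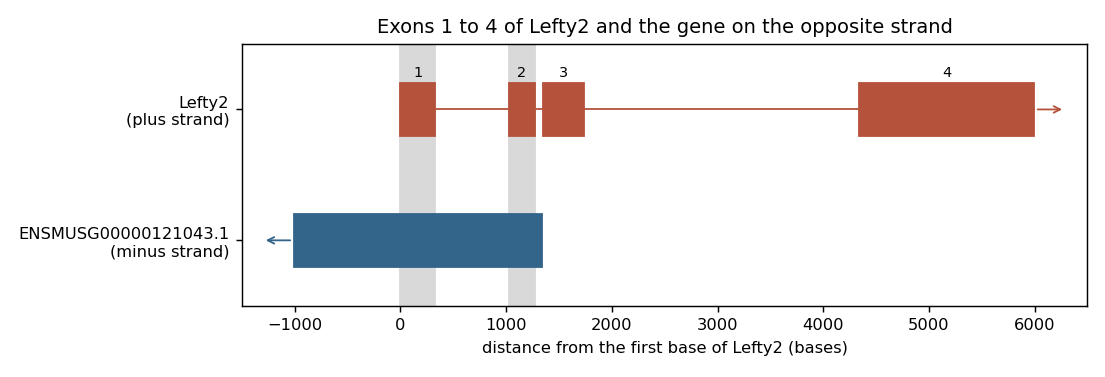
Exons of Lefty2 (plus strand, boxes 1 to 4) and of ENSMUSG00000121043.1 (minus strand, 1 box), plotted by distance in bases from the first base of Lefty2. Grey bands mark the 573 shared exonic bases, which are all of exons 1 and 2, and the minus-strand gene reaches 1009 bases before the start of Lefty2.

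What a row counts is in doubt in this table, which bears on every value that follows. Whether and how the counting used strand is not given in the sources used here. Of the 100 tested genes with the highest mean CPM (counts per normalised library size) in ESC, 99 had exonic bases opposite another gene, against 65.4% of all 7150 tested genes. In 2787 pairs of a protein-coding gene and a gene of another type on the other strand, with at least 1 count and without the 10 genes, the gene of the other type had more counts in 75.4% and the protein-coding gene in 23.4%. Whether the counts on a row, ENSMUSG00000121043.1 and Lefty2 included, came from the gene it names or from the one opposite cannot be told from the table. Gene names below stand for rows.

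The coding bases of exon 1 are shown because they are part of the stretch of Lefty2 that lies opposite ENSMUSG00000121043.1 and the exon in which Lefty2 differs most from its paralog Lefty1. The sequence is from the GENCODE M21 transcript (build GRCm38, plus strand, 5′ to 3′), and capitals mark the bases at which Lefty1 differs.
Lefty2 exon 1, chr1:180893184-180893433: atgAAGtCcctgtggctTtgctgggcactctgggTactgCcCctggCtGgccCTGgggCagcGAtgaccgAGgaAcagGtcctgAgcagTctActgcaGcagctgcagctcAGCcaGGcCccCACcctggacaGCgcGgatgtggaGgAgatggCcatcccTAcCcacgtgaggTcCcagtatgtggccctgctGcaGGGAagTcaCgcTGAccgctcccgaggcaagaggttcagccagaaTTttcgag
In exon 1 the paralogs differed at 56 of 250 coding bases, so 77.6% were identical. Exon 2 was closer, with 14 differences in 247 bases (94.3% identical). Exon 3 differed at 5 of 246 coding bases and exon 4 at 15 of 361. Over all 1104 coding bases 91.8% were identical, with a longest identical run of 140 bases. Of all stretches of 50 bases in the Lefty2 coding sequence, 26.6% occurred unchanged in Lefty1, and 17.2% of those within exons 1 and 2. How the counting treated reads that fit several places is not given in the sources used here, so counts of Lefty1 and Lefty2 are uncertain to that extent.

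ENSMUSG00000121043.1 had 4767, 3373 and 3761 counts in ESC replicates 1 to 3, against 2, 0 and 2 in the neuron replicates in the same order. Scaled to CPM, the count divided by the normalised library size and multiplied by 1e6, its level was 3418 ± 163 in ESC and 1.94 ± 1.71 in neurons (SD, n = 3 in each group here and below). The ESC libraries lay close together and far above every neuron library. It ranked 44th by mean CPM among the 57010 genes in ESC and took up 0.247% to 0.269% of all counts in those libraries. The ratio of summed normalised counts, ESC over neuron, was 1769, with an exact 95% interval of 691 to 6492. Such intervals cover counting error only. With 4 neuron counts in all, leaving out 1 library moved the ratio between 1193 and 2467, and scaling to total counts in place of the trimmed-mean factors gave 1091.

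Lefty2, the antagonist opposite that row, had 100, 50 and 75 counts in ESC against 0, 0 and 1 in neurons, or 63.8 ± 13.9 against 0.53 ± 0.93 CPM. All 3 ESC libraries were above all 3 neuron libraries. The ESC over neuron ratio was 134 (95% interval 23.8 to 5306) and rested on a single neuron count, in replicate 3, without which neurons had none; without neuron replicate 1 the ratio was 84.0, and under total counts 82.5. Of the counts on the pair of rows, 97.9% in ESC replicate 1 were on the minus-strand row (Wilson 95% interval 97.5% to 98.3%), with 98.5% in replicate 2 (98.1% to 98.9%) and 98.0% in replicate 3 (97.6% to 98.4%), a mean of 98.2% ± 0.32. The minus-strand row thus held 47.7 to 67.5 times the counts of Lefty2 in ESC libraries. By the limit given above, these values describe the row, and the transcript behind it is not known.

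Lefty1, the other antagonist, had 17, 9 and 19 counts in ESC against 0, 1 and 1 in neurons, or 12.9 ± 4.24 against 1.03 ± 0.89 CPM. The groups did not overlap. Its ESC over neuron ratio was 13.4 (3.49 to 114), or 8.40 without neuron replicate 1 and 8.25 under total counts. The closest gene on the other strand, 2210411M09Rik, is 13663 bases away and had 159, 104 and 123 counts in ESC against 4, 6 and 5 in neurons.

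Nodal itself (ENSMUSG00000037171.7, chromosome 10, 61253751 to 61261117, plus strand) had few counts in either group. There were 8, 10 and 4 in ESC against 4, 0 and 4 in neurons, or 6.44 ± 3.05 against 3.88 ± 3.41 CPM. The groups overlapped, since neuron replicates 1 and 3 lay above ESC replicate 3. The ESC over neuron ratio was 1.63, with an interval of 0.701 to 4.25, and it was 1.01 under total counts and 2.28 without neuron replicate 3. A difference in Nodal was not detectable at this depth.

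Tdgf1 (ENSMUSG00000032494.13, chromosome 9, 110768671 to 110775226, minus strand), the co-receptor, had 19, 7 and 15 counts in ESC against 0, 1 and 0 in neurons, or 11.5 ± 4.15 against 0.50 ± 0.86 CPM. Every ESC library was above every neuron library. The ratio of 24.4 (4.14 to 986) again rested on 1 neuron count, in replicate 2; without neuron replicate 1 it was 15.3, and under total counts 15.0. The Tdgf1 pseudogenes Tdgf1-ps1 and Tdgf1-ps2 had 0 counts in all 6 libraries.

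The receptor genes were near the limit of detection. Acvr1b (ENSMUSG00000000532.12, chromosome 15, 101071948 to 101111565, plus strand), which encodes the type I receptor, had 1, 0 and 2 counts in ESC against 3, 4 and 1 in neurons, or 0.85 ± 0.91 against 3.83 ± 2.18 CPM. The groups overlapped, because neuron replicate 3 was below ESC replicate 3. The neuron over ESC ratio was 4.49 (1.08 to 26.3), 3.15 without ESC replicate 2, 9.17 without ESC replicate 3 and 7.27 under total counts. Acvr2b (ENSMUSG00000061393.15, chromosome 9, 119231184 to 119264061, plus strand), the type II receptor, had 2 counts in every ESC library, against 4, 1 and 1 in neurons. Its levels of 1.75 ± 0.22 and 2.77 ± 2.12 CPM overlapped, and the neuron over ESC ratio of 1.68 (0.450 to 6.29) was 0.893, below 1, without neuron replicate 1 and was 2.73 under total counts. Within an intron of Acvr2b, on the other strand, Gm47320 had 1, 2 and 1 counts in ESC against 8, 7 and 5 in neurons.

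Smad2 and Smad3 did not share a pattern. Smad3 (ENSMUSG00000032402.13, chromosome 9, 63554049 to 63665276, minus strand) had 4, 7 and 7 counts in ESC against 28, 16 and 21 in neurons, or 5.37 ± 2.06 against 31.3 ± 6.66 CPM, and it was the one gene of the 10 with all neuron libraries above all ESC libraries. Its neuron over ESC ratio was 6.07 (3.56 to 10.9), between 4.82 and 6.98 with 1 library left out and 9.85 under total counts. Smad2 (ENSMUSG00000024563.17, chromosome 18, 76374651 to 76444034, plus strand) had 8, 0 and 5 counts in ESC against 2, 3 and 1 in neurons, or 3.52 ± 3.13 against 2.89 ± 1.45 CPM. The groups overlapped, and the ESC over neuron ratio of 1.29 (0.457 to 4.13) became 0.795 under total counts and 0.803 without ESC replicate 1, which turned its direction. Foxh1 (ENSMUSG00000033837.6, chromosome 15, 76552425 to 76554148, minus strand), the Smad partner, had 28, 13 and 23 counts in ESC against 3, 3 and 2 in neurons, or 18.2 ± 4.83 against 3.86 ± 0.63 CPM. Its groups did not overlap, with an ESC over neuron ratio of 4.76 (2.27 to 11.5), 4.34 to 5.40 with 1 library left out and 2.93 under total counts. The motor protein gene Kifc2 ends 28 bases from the end of Foxh1 on the other strand and had 731, 629 and 613 counts in ESC against 13, 9 and 12 in neurons. Gm47320, 2210411M09Rik and Kifc2 are named as the nearest rows on the other strand, and were chosen after their values were seen.

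**Figure D2:**
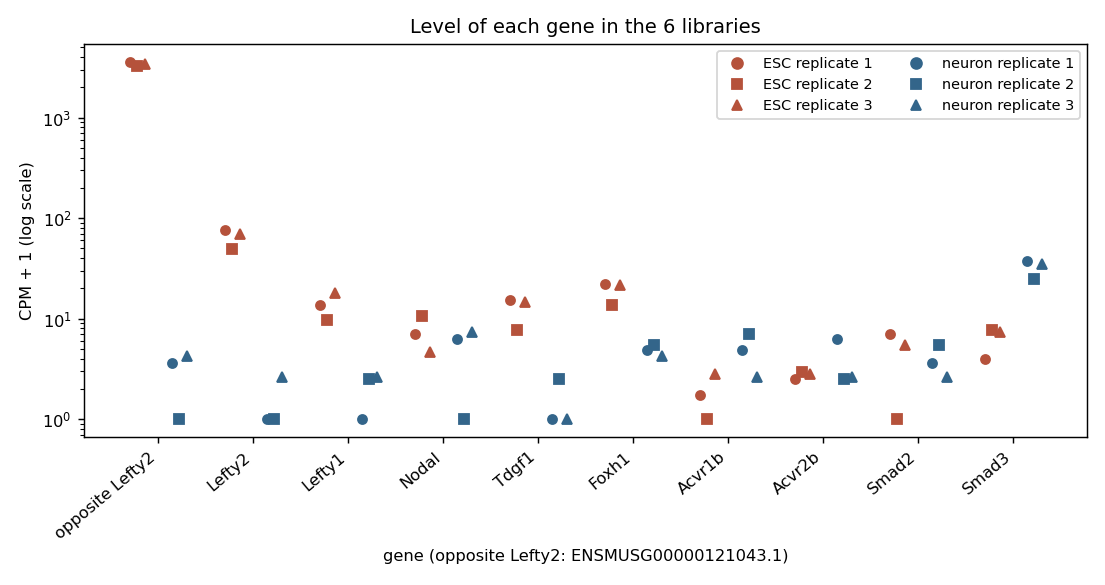
CPM + 1 on a log scale for the 10 genes, with 1 point for each of the 3 ESC and 3 neuron libraries. The gene opposite Lefty2 stands far above all others in ESC, Smad3 is the only gene with every neuron library above every ESC library, and Nodal, Acvr1b, Acvr2b and Smad2 overlap between the groups.

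Counted over the 10 genes, 5 were lower in every neuron library than in every ESC library (ENSMUSG00000121043.1, Lefty2, Lefty1, Tdgf1 and Foxh1), 1 was higher (Smad3) and 4 overlapped. Among the 28820 genes with at least 1 count, 22.8% had all neuron libraries below all ESC libraries and 24.2% had them above. The list was chosen with this contrast known, so nothing is read from these shares. Only ENSMUSG00000121043.1, Lefty2 and Smad3 passed the filter on low counts, and the other 7 were left out of the fit across genes. The filter works on counts relative to library size, so smaller counts passed in the smaller neuron libraries. Foxh1, with 28, 13 and 23 counts in ESC, was thus left out, while the pathway gene Trim33 passed with 7, 6 and 6 in neurons. In these bulk cultures, fewer cells of a type and less of the RNA per cell cannot be told apart.

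**Figure D3:**
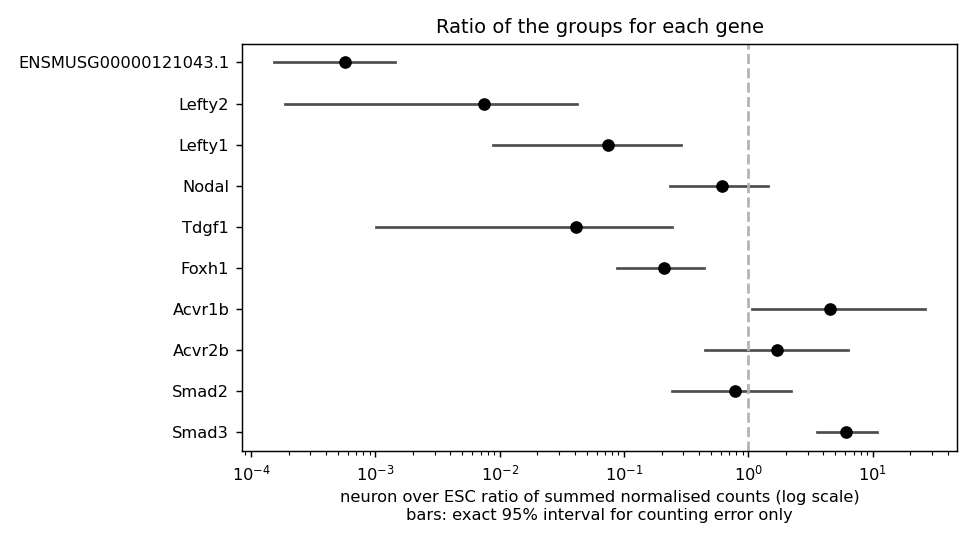
Neuron over ESC ratio of the summed normalised counts on a log scale, 1 point per gene, with exact 95% intervals for counting error as bars and a dashed line at equality. Intervals of Nodal, Acvr2b and Smad2 cross the line, and that of Acvr1b (1.08 to 26.3) begins just to the right of it.

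Levels were compared between genes as CPM per kilobase of exon. In ESC the order was ENSMUSG00000121043.1 (1458 ± 69.5), Lefty2 (24.4 ± 5.32), Foxh1 (13.3 ± 3.54), Lefty1 (7.34 ± 2.41), Tdgf1 (4.40 ± 1.58), Nodal (3.07 ± 1.46), Smad3 (0.969 ± 0.371), Acvr2b (0.446 ± 0.056), Smad2 (0.400 ± 0.357) and Acvr1b (0.193 ± 0.206). The libraries of neighbours in this order overlapped from Foxh1 through Lefty1 and Tdgf1 to Nodal, and again from Acvr2b through Smad2 to Acvr1b. In neurons Smad3 came first at 5.66 ± 1.20 CPM per kilobase, above Foxh1 at 2.83 ± 0.46 without overlap. From Foxh1 down to Tdgf1, at 0.189 ± 0.328, each gene overlapped the next.

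Total counts ran from 513425 to 1775055 per library, so that 1 count was worth 0.753 to 0.967 CPM in ESC and 1.31 to 1.60 CPM in neuron libraries. The limit that a count of 0 allows, 3 counts over a whole group, was 0.865 CPM in ESC and 1.46 CPM in neurons. ESC replicate 2 stood apart: its counts differed from those of the other ESC libraries over genes with a chi-square, divided by its degrees of freedom, of 3.96 (replicate 1) and 4.16 (replicate 3), against 1.31 between replicates 1 and 3. Of the 10 genes, 7 had a higher mean in ESC, and in 6 of these 7 ESC replicate 2 was the lowest of the 3 ESC libraries. Nodal was the exception, with its highest CPM there. Of 4201 genes with a mean of 10 to 100 ESC counts, 45.1% were lowest in replicate 2, and 51.2% of the 1583 of these without a gene opposite. Without ESC replicate 2 the ESC over neuron ratios were 1806 for ENSMUSG00000121043.1, 148 for Lefty2, 15.2 for Lefty1, 28.8 for Tdgf1 and 5.40 for Foxh1. What part this library's difference played in the values was not tested.

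The labels were set against marker lists. Each of the 10 pluripotency markers had the lower mean in neurons, with summed levels of 185 to 251 CPM in ESC and 2.98 to 8.01 in neurons, where Pou5f1, Nanog, Zfp42, Esrrb, Dppa5a, Utf1 and Fgf4 were at 0. The 10 neuronal markers summed to 208 to 254 CPM in ESC and 1070 to 1311 in neurons, but without Nefm the other 9 summed to 84.2 to 91.9 and 57.7 to 64.1. Nefm, on the minus strand, spans the whole of Nefl on the plus strand. Both have exonic bases opposite another gene, so they are not separate markers, and what each row counts is in doubt. Map2, Rbfox3, Snap25, Dcx and Nefm had the higher mean in neurons, with Rbfox3 and Snap25 at 0 in ESC, and the other 5 had the lower mean there. Of these, Slc17a7, a vesicular glutamate transporter, fell from 48.1 ± 0.73 to 1.37 ± 1.31 CPM (log2 fold change −4.93, edgeR adjusted p = 9.87e-12). Map2 and Nefm were tested too and rose (edgeR adjusted p = 3.60e-09 and 4.94e-23). Slc17a7 reached the level of the filter on low counts only in ESC, and Map2 only in neurons. The p-values of Slc17a7 and Map2 are therefore no independent support for a difference. Syn1 (17.1 against 11.6 CPM), Nefl (9.08 against 6.86), Tubb3 (6.21 against 3.27) and Syp (5.98 against 5.38) overlapped between the groups. Of the latter, Syn1 was tested and did not pass (edgeR adjusted p = 0.223). The 6 astrocyte markers summed to 2.71 to 5.27 CPM in ESC and 41.7 to 67.1 in neurons, with Slc1a3, Slc1a2, Aqp4 and S100b at 0 in ESC and Aldh1l1 at 0 in neurons. The 6 oligodendrocyte markers ran from 24.1 to 29.9 and from 35.8 to 56.1 CPM, with Pdgfra at 0 in ESC; without Mbp, at 21.5 CPM in ESC and 2.50 in neurons, the other 5 summed to 2.26 to 8.71 and 32.8 to 54.8. The 5 microglial markers ran from 201 to 266 and from 130 to 145 CPM, with C1qa at 0 in both groups and P2ry12 at 0 in ESC; without Csf1r, at 211 and 126 CPM, they summed to 16.3 to 16.6 and 9.62 to 18.3. The 6 fibroblast markers stayed at or below 0.967 CPM in ESC and 3.21 in neurons, with Lum and Postn at 0 in both groups. The part that other cell types had in the values of the 10 genes was not tested. Markers of primitive streak and endoderm, which Nodal signalling induces in the embryo, were close to 0: T (Brachyury), Gata6, Sox17 and Foxa2 had no count in any library, and the 6 markers together gave at most 1.93 CPM in ESC and 1.60 in neurons.

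The rest of the pathway was tested as a list of 57 genes besides the 10. In edgeR's quasi-likelihood test over all genes that passed the filter, 85.6% of 7150 genes differed between the groups at a Benjamini-Hochberg adjusted p of 0.05, with 38.6% lower and 47% higher in neurons. That balance depended on the filter. With a mean of at least 10 counts instead, 2479 genes were called higher and 2500 lower in neurons, against 3358 and 2761 here. Of the 57 pathway genes, 47 had a count, 14 were tested and 11 of the 14 passed, 5 higher and 6 lower in neurons, to be read against that background of 85.6%. Among the 11, Inhbb, Gdf11, Nedd4l and Smurf2 reached the level of the filter only in neurons, and Pcsk6, Smad6 and Tgif1 only in ESC. Eng, with 11, 11 and 3 counts in neurons, fell below it in neuron replicate 3 and also passed through ESC alone. For such genes the filter itself favours a difference, so their calls and p-values below are no independent support for one. The same filter shaped the background. The median log2 fold change of the 14, neuron minus ESC, was 0.24, also with Inhbb and Pcsk6, which had no count in one group, at the lower bounds of their change, against 0.37 over all tested genes. Scaling to total counts moved the median of all genes up by 0.73, and 12 of the 14 then passed, 7 higher and 5 lower; the calls over all genes became 65.5% higher in neurons, against 54.9%. Each of the 11 kept its sign under total counts and DESeq2 size factors.

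Among ligands and the proteases that process them, Inhbb and Gdf11 rose and Pcsk6 fell, of 3 tested and 13 listed. Inhbb encodes the beta B subunit of inhibins and activins. It was at 0 in all ESC libraries and had 15, 13 and 9 counts in neurons, at least 20.7-fold higher (against 3 counts over the ESC group; edgeR adjusted p = 6.55e-10). Gdf11, a ligand that also acts through Smad2 and Smad3, rose from 3.97 ± 2.65 to 19.5 ± 1.29 CPM, or 2.33 ± 0.45 (SE) as a log2 fold change (edgeR adjusted p = 1.29e-05). Pcsk6 encodes the convertase PACE4, which can cleave the Nodal precursor. It had 33, 17 and 32 counts in ESC and none in neurons, at least 16.2-fold lower (edgeR adjusted p = 6.57e-09). Gdf3, a Nodal-related ligand of pluripotent cells, was not tested and had 14, 5 and 17 counts in ESC and none in neurons.

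Of 7 other receptor genes, Acvr2a and Eng were tested and both fell. Acvr2a, the second type II receptor gene, had 113, 86 and 84 counts in ESC against 37, 47 and 13 in neurons, or 81.4 ± 4.77 against 46.4 ± 24.7 CPM, or −0.80 ± 0.25 (SE) as a log2 fold change (edgeR adjusted p = 0.00451). It shares 446 exonic bases with Orc4 on the other strand, which rose from 28.4 ± 6.45 to 199 ± 40.7 CPM (log2 fold change 2.82, edgeR adjusted p = 2.58e-15). The call on Acvr2a was lost under total counts (log2 fold change −0.07, edgeR adjusted p = 0.809), with a mean of at least 10 counts (−0.43, edgeR adjusted p = 0.128) and without neuron replicate 3 (−0.50, edgeR adjusted p = 0.0559). Eng, encoding the auxiliary receptor endoglin, fell from 51.5 ± 7.40 to 11.9 ± 6.18 CPM, or −2.08 ± 0.32 (SE) as a log2 fold change (edgeR adjusted p = 2.47e-07). Tgfbr1, Tgfbr2, Tgfbr3, Acvr1c and Cfc1 were not tested.

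Of 8 other extracellular antagonists, Dand5 alone was tested, and it fell. Dand5, a secreted protein that binds Nodal and takes part in left-right patterning, had 480, 378 and 442 counts in ESC against 31, 25 and 36 in neurons, or 376 ± 21.2 against 45.1 ± 11.0 CPM, or −3.06 ± 0.17 (SE) as a log2 fold change (edgeR adjusted p = 5.36e-19). It shares 240 exonic bases with Gadd45gip1 on the other strand; the latter had 871, 713 and 740 counts in ESC against 112, 87 and 102 in neurons. Cer1, another secreted antagonist of Nodal, and the BMP antagonist Nog had no count in any library. Among 9 Smads and cofactors only Trim33, which binds phosphorylated Smad2 and Smad3, was tested, at 4.73 ± 1.94 CPM in ESC and 9.23 ± 0.35 CPM in neurons; its edgeR adjusted p was 0.0682, or 0.00157 with total-count scaling. Smad4, the shared partner of Smad2 and Smad3, had 3, 3 and 5 counts in ESC against 2, 3 and 3 in neurons.

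The intracellular inhibitors moved in both directions, with 7 of 12 tested, 3 higher and 2 lower in neurons. Nedd4l, a ubiquitin ligase that acts on activated Smad2 and Smad3, rose from 2.80 ± 0.92 to 43.6 ± 1.99 CPM, or 3.86 ± 0.39 (SE) as a log2 fold change (edgeR adjusted p = 2.14e-11). Smurf2, another ubiquitin ligase of the pathway, rose from 2.30 ± 0.39 to 12.6 ± 3.46 CPM (edgeR adjusted p = 2.71e-05). Tgif2 rose from 88.4 ± 9.70 to 140 ± 12.3 CPM (log2 fold change 0.66, edgeR adjusted p = 0.000634), while its relative Tgif1, also a Smad corepressor, fell from 36.8 ± 5.17 to 5.96 ± 2.05 CPM (log2 fold change −2.64, edgeR adjusted p = 6.95e-08). Smad6, an inhibitory Smad acting mainly on the BMP branch, had 27, 20 and 26 counts in ESC against 1, 0 and 2 in neurons (log2 fold change −3.73, SE 0.59, edgeR adjusted p = 3.67e-07). Smurf1 and Ppm1a did not pass (edgeR adjusted p = 0.294 and 0.992). Of 14 other targets of the pathway, none was tested. Eomes, a target in the primitive streak, had 5, 3 and 6 counts in ESC, against 1 in all neuron libraries.

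**Figure D4:**
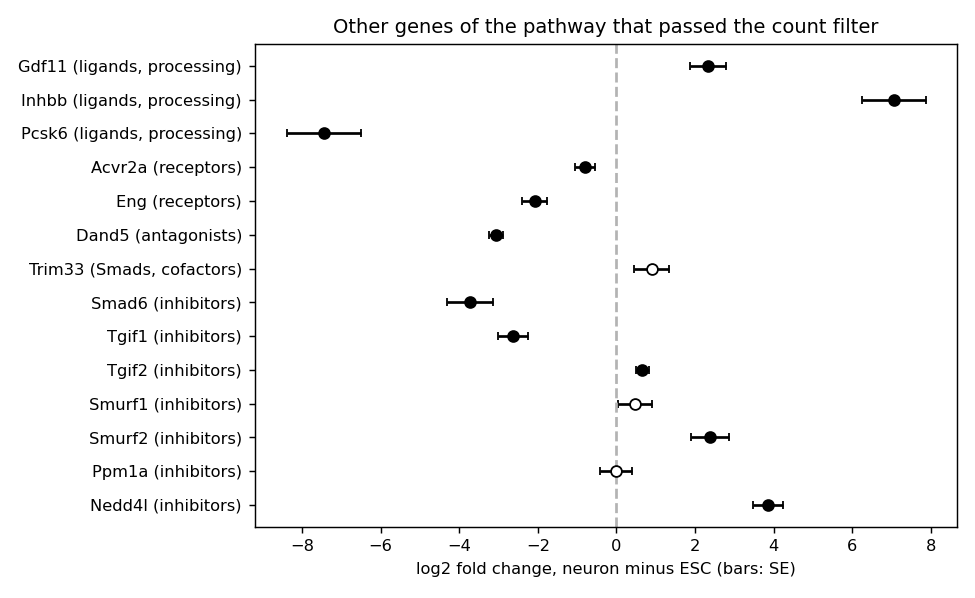
Log2 fold change, neuron minus ESC, with its SE for the 14 pathway genes outside the list of 10 that passed the count filter, ordered by role. Filled points (11) passed an edgeR adjusted p of 0.05, with 5 to the right of 0 and 6 to the left, and open points are Trim33, Smurf1 and Ppm1a.

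Of the 57 genes, 23 had exonic bases opposite those of another gene, in 25 pairs, and in 21 of the 25 the partner had more counts over the 6 libraries. This was common in the table: over all 6017 pairings of a protein-coding gene with a gene opposite its exons and at least 1 count, without the 10 genes, the gene opposite had more counts in 62.3%. A pair of 2 protein-coding genes entered these pairings from both sides, which draws the share toward an even split. In the 2787 pairs with a gene of another type the share was 75.4%. Of these partners, 19 were tested and 14 passed, 8 higher and 6 lower in neurons, where 85.6% of all tested genes passed. The partner did not always move with the gene: 5430405H02Rik, sharing 2668 bases with Tgif2, fell from 1248 ± 53.2 to 155 ± 30.0 CPM (log2 fold change −3.01, edgeR adjusted p = 7.52e-23) where Tgif2 rose, and Orc4 rose where Acvr2a fell. Gm9320, sharing 99 bases with Tgif1, fell with it, from 337 ± 41.1 to 2.97 ± 1.69 CPM (edgeR adjusted p = 5.72e-23). With 2, 1 and 3 counts in neurons, Gm9320 reached the level of the filter only in ESC, as Tgif1 did. Its p-value is therefore no independent support for a fall. Gm20416, sharing 116 bases with the transcriptional coactivator gene Yap1, had 410, 404 and 282 counts in ESC against 43, 28 and 37 in neurons, where Yap1 had 4, 3 and 5 in ESC against 3, 0 and 1 in neurons. These partners were chosen after their values were seen.

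**Figure D5:**
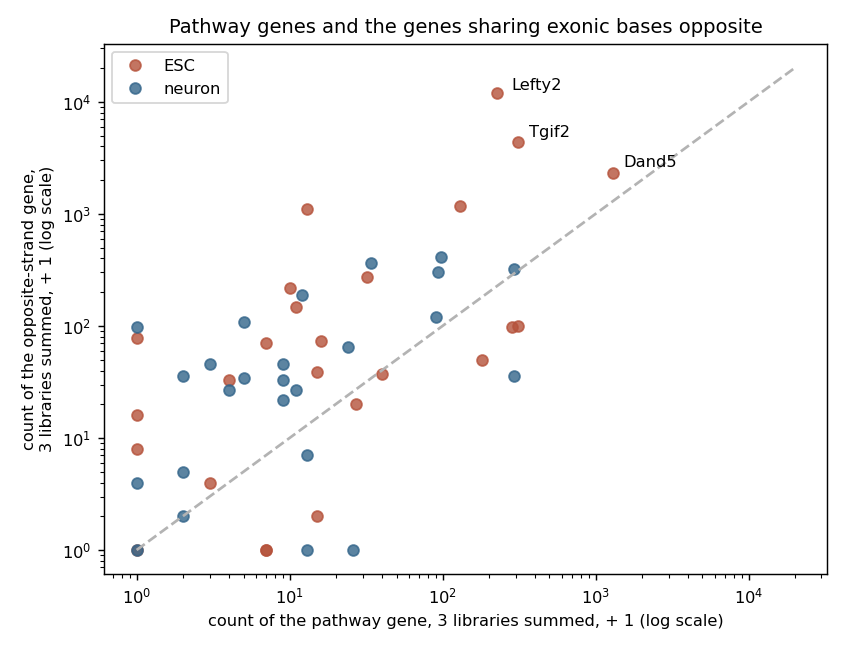
Counts summed over the 3 libraries of a group, plus 1, on log axes, for Lefty2 and for the pathway genes that share exonic bases with a gene on the other strand (x axis) and for that gene (y axis), ESC and neuron in separate colours. Most points lie above the dashed line of equal counts, and Lefty2 in ESC, with 225 counts against 11901, lies highest.

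The tested genes most like ENSMUSG00000121043.1 over the 6 libraries, by Euclidean distance of log2 CPM, were Dnah8 (distance 2.07), Gm17232 (2.26), Gm48840 (2.44), Nphs1 (2.49) and BC065397 (3.12). Each of these 5 had exonic bases opposite another gene, as did 65.4% of all tested genes and 99 of the 100 with the highest mean CPM in ESC. With levels this high in ESC, that is no trait of the pattern. Tdh, for one, lies opposite Gm17232. Dnah8 had 2371, 1831 and 2041 counts in ESC against 2, 0 and 0 in neurons. For Nodal the nearest were ENSMUSG00000120113.1 (1.92), Trim14 (1.96), Dynll2 (2.01), Sh2b1 (2.07) and Rps12-ps9 (2.08), none of which had over 19 counts in a library.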

How the data were processed

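Raw read counts per gene for 6 libraries (3 ESC, 3 neuron) were taken as the authors deposited them. Sample columns were matched by library name and groups by sample title; 0 sample columns were left unmapped. Per the file headers, the reads had been aligned with STAR; the submitters' processing notes name cutadapt, STAR, RSEM and the build GRCm39 (mm39), with no role for each. The counting tool and its strand setting are not given in the sources used here. The gene positions and the gene length in bases were also deposited; positions are those of the table. Symbols came from a separate table of gene identifiers and names, matched by identifier without its version, for 91.3% of genes.

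Genes were kept by filterByExpr (minimum count 10), scaled by trimmed-mean factors (TMM) and fitted with glmQLFit (robust) and glmQLFTest over all 6 libraries in edgeR 4.0.16 (R 4.3.3), with Benjamini-Hochberg adjustment over 7150 genes and a threshold of 0.05. CPM are counts over the TMM-scaled size of the tested genes. SE is the log2 fold change over the square root of F. Ratios of summed counts carry exact 95% intervals. Exon overlap (at least 1 base, opposite strand) used bedtools 2.31.1, and gene types were those of GENCODE M21. The fit was tested on simulated counts for the comparison of neuron with ESC (7150 genes, 200 changed 4-fold). There, 81% of changed genes were called and 4.14% of calls were false. In the data, 85.6% of the 7150 tested genes were called. The share of false calls with so many genes differing was not tested.

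The members, lists and rules were chosen with earlier results of these data known. Named genes were the 10, their partners across the strands, tested list genes by role, and the 5 nearest genes by pattern. Alternatives were DESeq2 size factors, total counts, other count filters, a replicate block, DESeq2 1.42.0, limma-voom (limma 3.58.1) and leaving out each replicate; the fit on genes without opposite exonic bases was added after seeing the data. Promoter and protein sequences were not used here, and some listed genes and sequences are not reported here.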

Additional observations from a re-analysis of the deposited data

How the results depend on the processing

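The count of genes that differed was 6119, and it was 11762 with no filter on low counts and 1950 among genes sharing no exonic base with a gene on the other strand, an alternative chosen after seeing the data; both changed how many genes were tested. The pathway genes that passed numbered 11 (of 14 tested), and 4 (of 5 tested) in the latter fit, where 1950 of 2265 genes passed. No filter gave 16 pathway genes of 47 tested, where 11762 of 28820 genes passed. The other alternatives that kept all 6 libraries gave 4979 to 6186 genes, of 5971 to 7150 tested. They gave 8 to 12 pathway genes, of 10 to 14 tested. Leaving out 1 replicate gave 5430 to 7353 genes, of 6418 to 9200 tested, and 8 to 13 pathway genes, of 10 to 17 tested. Without ESC replicate 2 these were 5627 of 6497 and 9 of 11. Without neuron replicate 3 they were 7235 of 9030 and 11 of 17. With the replicate block, 6088 genes and 11 pathway genes passed; deviations of same-numbered samples correlated at 0.019, 0.0039 and −0.022, and the replicate numbers are taken as names only. Of the 10 genes, 2 shared exonic bases with the other strand at 1 base or at 100 bases. Fitted log2 fold changes, neuron minus ESC, ran from −11.17 to −9.98 for ENSMUSG00000121043.1, from −8.99 (without neuron replicate 3, where neurons had no count and the value depends on the prior count) to −5.92 (limma-voom) for Lefty2 and from 2.16 to 3.29 for Smad3. Those of Nodal, Lefty1, Tdgf1 and Foxh1 stayed negative wherever they could be fitted, in only 3, 4, 4 and 5 settings in that order. Total-count scaling was not among these settings. By summed counts under that scaling, the neuron over ESC ratio of Nodal was 0.991. Depth limits Acvr1b, Acvr2b, Smad2 and Nodal, with at most 10 counts in any library.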

Other observations

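The BMP branch, the other arm of TGF-beta family signalling, was listed with 14 genes and gave no tested gene. Of these, 13 had a count, 2 were lower in every neuron than in every ESC library and 5 were higher, against 22.8% and 24.2% of all genes with a count. Id3, a target of BMP signalling, had 10, 5 and 11 counts in ESC against 1, 2 and 1 in neurons, or 7.44 ± 2.56 against 1.96 ± 0.89 CPM (SD, n = 3). Its relative Id2 was at 0 in all ESC libraries and had 3, 11 and 8 counts in neurons, a level at least 12.3-fold higher against 3 counts over the ESC group. Id4 had 4, 0 and 2 counts in ESC against 14, 6 and 5 in neurons; it also has exonic bases opposite another gene. Bmp7, a ligand, had 16, 2 and 11 counts in ESC against 1, 0 and 0 in neurons, with ESC replicate 2 again the lowest ESC library. Smad1, which carries the BMP signal, had 1 count in each of the 6 libraries and is among the 5 only because the neuron libraries are smaller. These differences were not tested, since no gene of the list passed the filter.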
